A study of Homo sapiens with 9 samples.

Results

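The effect of putting STBD1 back into STBD1-depleted colon carcinoma cells was measured by comparing 3 libraries titled STBD1 WT with 3 libraries titled plvx neo. These 6 of the 9 libraries of the series were chosen by sample title. The cells were HCT116, an established human colon carcinoma line, and those of all 6 libraries carried a short hairpin RNA against STBD1 (shSTBD1). The plvx neo cells carried the empty lentiviral plvx-ires-neo vector as well, and the STBD1 WT cells carried the same vector with a wild-type STBD1 coding sequence that the hairpin does not recognise. According to the methods of the study the cells were infected with lentivirus and selected with drug, so each group is 1 stable line, and line and construct cannot be told apart. The series describes the replicates as biological and gives no culture or date for them. The tables deposited for the STBD1 WT samples carry w203c in their names, and those for the W203C samples carry the wild type. Directions are given here as the titles label them, and if the table names were right, the libraries called STBD1 WT here would hold the W203C construct.

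STBD1 (starch-binding domain-containing protein 1) is an endoplasmic reticulum membrane protein that binds glycogen with a carbohydrate-binding domain. It binds ATG8-family proteins such as GABARAPL1 through a short LC3-interacting region, and it is thought to bring glycogen to autophagosomes for breakdown in the lysosome by acid alpha-glucosidase, a route called glycophagy. ATG8 proteins on the autophagosome membrane hold cargo receptors of many kinds, of which STBD1 is one.

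The remaining line of the series carries STBD1 W203C, in which a tryptophan of the LC3-interacting region is replaced by cysteine. The wild-type codon of this tryptophan is shown because it is what the 2 constructs with exchanged names differ in. The codon lies in exon 2 of 2 of STBD1, in the coding sequence of 358 codons, at chr4:76309530-76309532 on the plus strand of hg38. The reference sequence of chr4:76309500-76309562 on that strand follows with this codon in capitals, and no read sequence was used to check which construct a library holds.
STBD1 tryptophan codon: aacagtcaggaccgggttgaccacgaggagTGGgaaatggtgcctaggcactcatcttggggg

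The summed expected count was 19.2 to 20.5 M per plvx neo library and 16.9 to 23.3 M per STBD1 WT library, and the 10 most counted genes took 6.07 to 6.89% of it. Genes of the mitochondrial genome took 4.60 to 5.38% over the 6 libraries. The median gap between the length and the effective length of a gene, which RSEM derives from the fragment lengths, was 239.5 to 247.0 bases in the plvx neo libraries and 250.1 to 263.1 bases in the STBD1 WT libraries, without overlap. Of 9 colon epithelial markers 7 reached 1 TPM (a transcript level scaled to length and library size), and CDH17 and VIL1 did not. The summed epithelial level was 3799 to 3899 TPM in plvx neo and 3394 to 3528 TPM in STBD1 WT. Of 7 fibroblast markers COL1A1 reached 1 TPM and 3 were at 0 in all 6 libraries, and of 7 leukocyte markers CD68 did. The summed fibroblast level was 13.9 to 16.6 TPM in plvx neo and 16.8 to 21.95 TPM in STBD1 WT, and the summed leukocyte level 2.62 to 2.82 and 4.38 to 7.67 TPM. No endothelial marker of 5 reached 1 TPM. Of 5 neural markers 2 did, with summed levels of 2.16 to 2.82 and 1.91 to 2.80 TPM. The part of other cell types in the results was not tested.

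STBD1 itself was examined first. The level of STBD1 (chr4:76306733-76311130, plus strand, hg38) was 2.75, 3.84 and 3.21 TPM in plvx neo and 10.8, 10.8 and 10.9 TPM in STBD1 WT. The read-through gene FAM47E-STBD1 (chr4:76251721-76311129), which contains the STBD1 exons, was at 1.37, 0.960 and 2.41 TPM in plvx neo and at 41.5, 43.6 and 46.1 TPM in STBD1 WT. Both entries were higher in every STBD1 WT library, and reads of the construct, of the endogenous gene and of the read-through transcript share sequence, so the division between the 2 entries is uncertain. The summed level was 4.85 ± 0.751 TPM (SD, n = 3) in plvx neo and 54.6 ± 2.39 TPM in STBD1 WT, an 11.3-fold difference (two-sided exact permutation test, p = 0.1, the smallest p that 3 against 3 allows). STBD1 alone gave 3.32 times. The sum of the 2 entries in expected counts, tested beside all genes with the quasi-likelihood test of edgeR, had a log2 fold change of 2.69 ± 0.0627 (SE), lower than that of the TPM sum.

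**Figure D1:**
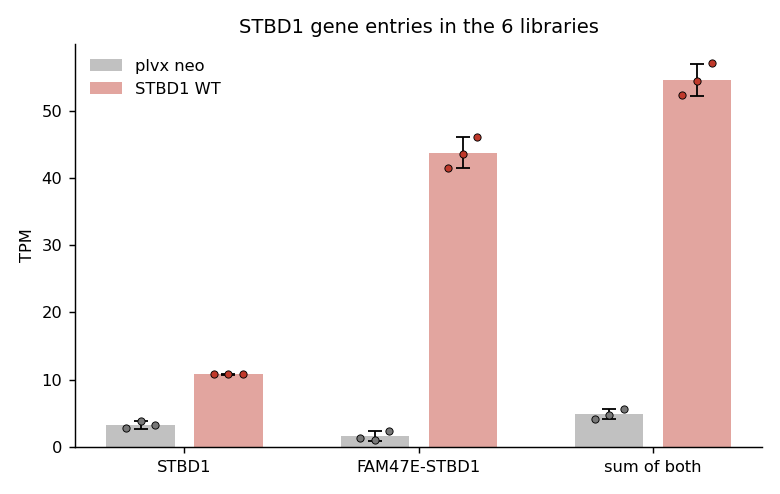
TPM of STBD1, of the read-through entry FAM47E-STBD1 and of their sum in the 3 plvx neo libraries (grey) and the 3 STBD1 WT libraries (red). Bars are means, error bars SD and points libraries. The sum lies between 4.12 and 5.62 TPM in plvx neo and between 52.3 and 57.0 TPM in STBD1 WT.

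Across the transcriptome the difference was broad and mostly small. Of 15289 genes tested, 4254 (27.8%) were called at an adjusted p below 0.05, 2128 (13.9%) higher and 2126 (13.9%) lower in STBD1 WT, and rose and fell are used of such genes only. The counts called in each list below stand against these 13.9% in each direction. Called genes had a median absolute log2 fold change of 0.26. The spread among replicates was small, with a biological coefficient of variation of 4.21%. Changes of at least 1.5 times were called for 541 genes (3.54%), and 466 (3.05%) of these rose while 75 (0.491%) fell. At 2-fold the numbers were 151 and 30, and at 4-fold 16 and 1. Groups did not overlap in CPM (counts scaled to library size) for 40.4% of the genes tested, 20.3% with STBD1 WT above and 20.1% below.

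The calls were not spread evenly over genes. Genes were put into 5 bins of equal size by GC content and by mean CPM. In the bin of lowest GC content 7.57% were called higher and 18.1% lower, and in the bin of highest GC content 26.8% were called higher and 6.94% lower. The median log2 fold change went from -0.04 to 0.12 between those bins, against 0.01 over all genes. The share called lower went from 1.01% in the least to 32.9% in the most abundant bin. With offsets for GC content and length in the fit, 1649 genes were called higher and 3294 lower, so that 33.4% of the calls were rises in place of 50.02%, and the median of all genes moved to -0.04. The part of GC content and of fragment length in the comparison was not tested. Counts under these offsets are given below for each list in which the number higher or the number lower changed by 2 or more, and for the other lists described each number changed by at most 1.

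**Figure D2:**
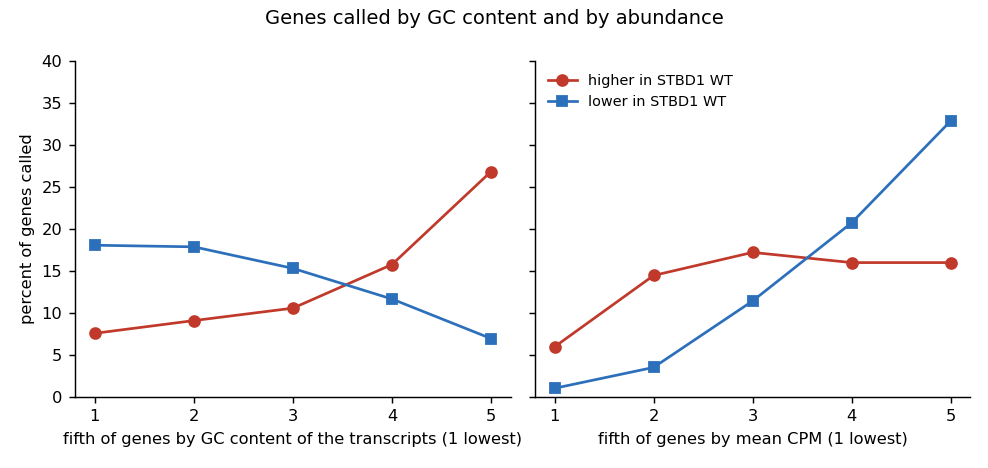
Percent of the genes tested that were called higher (red circles) or lower (blue squares) in STBD1 WT, by 5 bins of GC content (left) and of mean CPM over the 6 libraries (right). The share called higher reaches 26.8% in the bin richest in GC, and the share called lower reaches 32.9% in the most abundant bin.

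**Figure D3:**
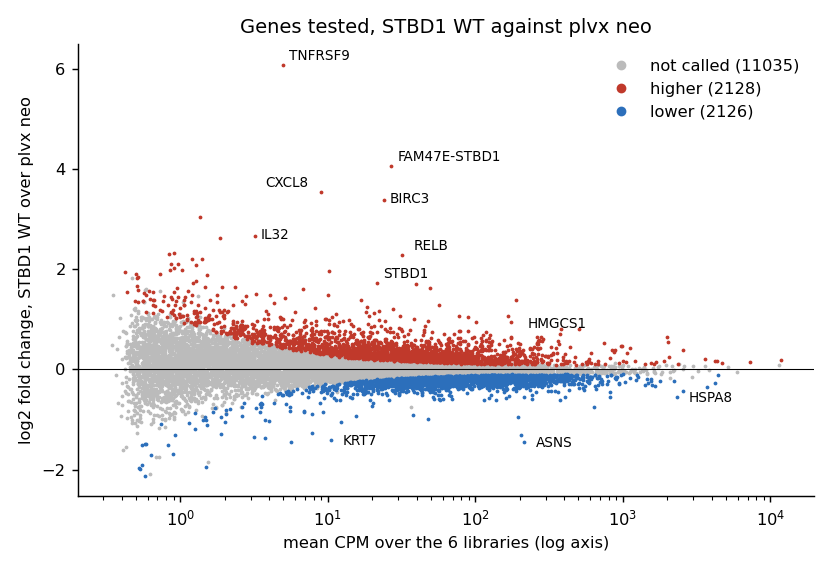
Log2 fold change of STBD1 WT over plvx neo against the mean CPM of the 6 libraries, on a log axis, for the 15289 genes tested. Red points rose, blue points fell and grey points were not called. The points above 2 on the log2 scale outnumber those below -2.

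The changes in genes around STBD1's own function were mostly small. Of 23 genes of glycogen synthesis, breakdown and glycophagy that were tested, 7 (30.4%) rose and 1 (4.35%) fell. Among all genes 13.9% were called in each direction. The median log2 fold change of the list was 0.10. STBD1, the gene the construct carries, is 1 of the 7. GYS1, the muscle-type glycogen synthase, was at 28.7, 32.5 and 27.3 TPM in plvx neo and at 39.1, 34.9 and 35.0 TPM in STBD1 WT (log2 fold change 0.33 ± 0.0475, adjusted p = 2.58e-05). PYGB, the brain-type glycogen phosphorylase, was at 49.6, 52.2 and 52.6 TPM in plvx neo and at 40.9, 41.3 and 38.7 TPM in STBD1 WT (log2 fold change -0.38 ± 0.0394, adjusted p = 4.88e-07). The groups did not overlap for either gene, and they stand on opposite sides, with the synthase higher and this phosphorylase lower in STBD1 WT. PYGL, the liver-type phosphorylase and the more abundant of the phosphorylases named, was at 109.7 ± 2.89 and 109 ± 2.13 TPM (log2 fold change 0.03 ± 0.0360, adjusted p = 0.641). WIPI1 and GAA, the lysosomal acid alpha-glucosidase, rose too, and beside these and STBD1 the calls of the other 3 rises were lost when 1 library was left out.

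The autophagy machinery was mixed. Of 30 core autophagy and ATG8-family genes 6 rose and 3 fell, against 13.9% of all genes in each direction (median 0.07), and with the GC and length offsets 5 rose and 6 fell. WIPI1, which binds the phosphoinositide of the forming autophagosome, rose from 14.2 ± 0.436 to 20.4 ± 1.23 TPM (log2 fold change 0.59 ± 0.0784), and MAP1LC3B, an ATG8 protein, rose with a log2 fold change of 0.24 ± 0.0425. ATG12, the ubiquitin-like conjugation protein, fell from 142 ± 4.22 to 109.6 ± 6.20 TPM (log2 fold change -0.27 ± 0.0412). GABARAPL1, the ATG8 protein that STBD1 binds, had a log2 fold change of 0.15 (adjusted p = 0.0660). Of 17 selective autophagy receptors 6 (35.3%) rose and PHB2 fell, with a median of 0.09.

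OPTN (optineurin, chr10:13099449-13138308), a ubiquitin-binding receptor for damaged mitochondria and bacteria, was at 8.62, 8.98 and 10.4 TPM in plvx neo and at 34.4, 31.2 and 31.3 TPM in STBD1 WT (log2 fold change 1.71 ± 0.0639, adjusted p = 1.11e-13). SQSTM1 (p62, chr5:179806398-179838078), the receptor for ubiquitinated protein, was at 239, 214 and 286 TPM in plvx neo and at 471, 432 and 336 TPM in STBD1 WT (log2 fold change 0.82 ± 0.0358, adjusted p = 1.43e-12). Every STBD1 WT library lay above every plvx neo library for both. BNIP3L, a mitochondrial receptor that is also hypoxia-responsive, was at 26.1, 28.5 and 26.8 TPM in plvx neo and 32.1, 37.8 and 35.3 TPM in STBD1 WT, and it rose by 0.50 ± 0.0489 on the log2 scale. CALCOCO2 (70.1 ± 4.90 and 63.2 ± 6.15 TPM) and TAX1BP1 (40.6 ± 2.11 and 43.1 ± 1.43 TPM), receptors of the same ubiquitin-binding kind as OPTN, were not called.

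Of 35 lysosomal hydrolases and membrane proteins 11 rose and 2 fell, with a median of 0.09, and with the GC and length offsets 10 rose and 4 fell with a median of 0.03. The largest rise was that of IDUA, the lysosomal iduronidase of glycosaminoglycan breakdown, at 2.21, 3.24 and 2.21 TPM in plvx neo and 6.35, 6.22 and 6.88 TPM in STBD1 WT (log2 fold change 1.02 ± 0.156, adjusted p = 5.71e-05). ARSA (arylsulfatase A, 0.72 ± 0.114), NEU1 (the lysosomal sialidase, 0.52 ± 0.0765) and GRN (progranulin, 0.40 ± 0.0421) rose as well. The abundant CTSB (0.08 ± 0.0372) and CD63 (0.09 ± 0.0417) were not called, and neither were LAMP1 (-0.04 ± 0.0372) and LAMP2 (-0.04 ± 0.0554), the main membrane glycoproteins of the lysosome. TFE3, a transcription factor of lysosomal genes, rose from 8.37 ± 0.663 to 12.03 ± 1.11 TPM (log2 fold change 0.43 ± 0.0718). It was 1 of the 2 that rose in a list of 19 genes, made of the subunits of the vacuolar proton pump and 3 transcription factors of lysosomal genes, in which 1 fell (median 0.02). The rises were 10.5% and the fall 5.26% of that list, against 13.9% of all genes in each direction.

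Cholesterol synthesis moved as a block. These genes make sterol from acetyl-CoA and take up lipoprotein cholesterol, and SREBP2 is their known activator. Of 25 genes tested 23 rose and 0 fell by edgeR, and the 2 others, PMVK and NSDHL, had log2 fold changes of 0.04 and 0.05. The median of the list was 0.43 and the STBD1 WT libraries did not overlap the plvx neo libraries for 23 of 25 genes, against 20.3% of all genes. No member of the list had a negative fold change. Only 6 of the 23 reached 1.5-fold.

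HMGCS1 (HMG-CoA synthase, chr5:43287470-43313512), an early step of the pathway, was at 48.2, 60.4 and 45.9 TPM in plvx neo and at 96.0, 96.3 and 95.8 TPM in STBD1 WT (log2 fold change 0.95 ± 0.0454, adjusted p = 5.55e-12). INSIG1, the sterol-sensing retention protein of the endoplasmic reticulum, was at 41.8, 49.9 and 48.2 TPM in plvx neo and at 75.8, 78.5 and 80.7 TPM in STBD1 WT (log2 fold change 0.75 ± 0.0499). LSS, which closes the sterol rings, was at 39.3, 37.7 and 36.5 TPM against 62.3, 60.8 and 64.4 TPM (log2 fold change 0.69 ± 0.0401). All libraries of STBD1 WT stood above all of plvx neo for each of these genes. TM7SF2, a sterol reductase, rose by 0.84 ± 0.0676 on the log2 scale. SQLE (0.47 ± 0.0458), which oxidises squalene, and SREBF2, which encodes SREBP2 (0.42 ± 0.0351), rose by less.

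Fatty acid synthesis followed with smaller changes. Of 18 genes tested 13 rose and 1 fell, with a median of 0.22. SCD, the stearoyl-CoA desaturase, was at 309, 325 and 326 TPM in plvx neo and at 480.3, 505 and 503 TPM in STBD1 WT (log2 fold change 0.64 ± 0.0352, adjusted p = 6.49e-11). FASN, the fatty acid synthase, was at 283, 258 and 279.8 TPM in plvx neo and at 407, 397 and 407 TPM in STBD1 WT (log2 fold change 0.56 ± 0.0350, adjusted p = 5.49e-10). Groups did not overlap for either. SREBF1, the activator of this branch, rose from 106 ± 6.49 to 142 ± 6.46 TPM, and ACLY (0.18 ± 0.0343) and ACACA (0.21 ± 0.0377), which supply acetyl-CoA and malonyl-CoA, rose by less. GPAM, the first enzyme of glycerolipid assembly, was the 1 that fell (-0.26 ± 0.0542).

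DNA replication genes were lower almost without exception. The list holds the origin licensing proteins, the MCM helicase, the polymerases and their clamp, most of which are induced at the G1 to S transition by E2F factors. Of 37 genes tested 35 fell and 0 rose by edgeR, against 13.9% of all genes lower. The 2 not called were LIG1 (50.4 ± 1.81 and 47.1 ± 3.99 TPM) and POLD1 (46.2 ± 3.94 and 47.5 ± 5.09 TPM). The median log2 fold change was -0.31, and with the GC and length offsets all 37 were called lower. In the bin of most abundant genes, where falls were common (32.9%), lay 17 of the 37. The changes were small, since only MCM10 fell by 1.5 times.

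MCM10, which helps to load and activate the helicase, was at 22.3, 26.1 and 24.6 TPM in plvx neo and at 19.5, 16.4 and 15.3 TPM in STBD1 WT (log2 fold change -0.60 ± 0.0494, adjusted p = 2.21e-08). CDC6, the licensing factor, was at 50.2, 60.4 and 54.2 TPM in plvx neo and at 35.95, 38.4 and 33.9 TPM in STBD1 WT (log2 fold change -0.51 ± 0.0420, adjusted p = 1.92e-08). ORC1, the largest subunit of the origin recognition complex, was at 18.4, 18.1 and 18.1 TPM against 14.2, 12.6 and 12.7 TPM (log2 fold change -0.47 ± 0.0607). The plvx neo libraries were above the STBD1 WT libraries for each, without overlap. POLD3 (-0.48 ± 0.0728), CDC45 (-0.46 ± 0.0628), MCM2 (-0.34 ± 0.0387) and the licensing factor CDT1 (-0.33 ± 0.0503) fell as well, and so did E2F1 itself (-0.41 ± 0.0550).

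The promoters of 4 replication genes that fell are shown with the E2F letters TTTNNCGC, read on both strands in the 250 bases before each RefSeq gene start (GRCh38.p14). The 4 genes were chosen after their values were seen, from those with a match. RFC3 (-0.46 ± 0.0622) and PCNA (-0.30 ± 0.0364) encode the clamp loader and the clamp, GINS2 (-0.44 ± 0.0544) and MCM6 (-0.35 ± 0.0386) parts of the helicase. Capitals mark the letters matched, and in MCM6 several matches overlap. A second RefSeq start of PCNA had 0 matches in its window. Each stretch of 60 bases is written along the strand of its gene. RFC3 is at chr13:33818069-33818128 (plus), GINS2 at chr16:85688955-85689014 (minus), PCNA at chr20:5126647-5126706 (minus) and MCM6 at chr2:135876495-135876554 (minus).
RFC3: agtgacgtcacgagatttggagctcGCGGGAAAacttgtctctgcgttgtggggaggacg
GINS2: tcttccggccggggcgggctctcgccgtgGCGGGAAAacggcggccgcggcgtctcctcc
PCNA: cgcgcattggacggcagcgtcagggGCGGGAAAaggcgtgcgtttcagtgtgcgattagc
MCM6: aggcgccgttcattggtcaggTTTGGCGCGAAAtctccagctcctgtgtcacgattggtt

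A match to these letters was found for 15 of the 30 listed replication genes that have an entry in the promoter table. Over all 35093 promoters the share was 5.92%, and by gene it was 11.1% of the 11091 tested genes with an entry. The letters were not in the window of MCM10, CDC6, ORC1 or CDC45. A match is a description of the letters and shows no binding.

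Enzymes that make nucleotides were lower too. Of 22 tested 17 fell and 0 rose by edgeR (median -0.23), and with the GC and length offsets 20 fell. In the most abundant bin, where 32.9% of genes were lower, lay 17 of the 22. Among them was RRM1, the large subunit of ribonucleotide reductase, which went from 72.7 ± 1.75 to 62.9 ± 3.16 TPM (log2 fold change -0.35 ± 0.0410). GART and PAICS, enzymes of purine synthesis, were at 115 ± 6.71 and 232 ± 9.71 TPM in plvx neo and at 91.0 ± 1.31 and 183 ± 8.91 TPM in STBD1 WT. TYMS (-0.21 ± 0.0358) and CTPS1 (-0.24 ± 0.0443), of thymidylate and CTP synthesis, fell by similar amounts. IMPDH2 (427 ± 6.04 and 429 ± 6.43 TPM) and TK1 (241 ± 15.8 and 236 ± 9.12 TPM) were not called.

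Mitosis genes moved the same way and by less. Of 35 tested 23 fell, 1 rose and 11 were not called (median -0.16), and 30 of the 35 lay in the most abundant bin. MAD2L1, the spindle checkpoint protein, was at 131, 127 and 132 TPM in plvx neo and at 94.0, 91.1 and 93.05 TPM in STBD1 WT (log2 fold change -0.35 ± 0.0398, adjusted p = 1.93e-06). CCNA2, cyclin A, fell from 61.9 ± 1.26 to 51.6 ± 1.36 TPM, and the proliferation markers MKI67 (-0.16 ± 0.0406) and TOP2A (-0.16 ± 0.0397) fell by less. CDC25B, a phosphatase that activates cyclin-dependent kinase, was the 1 that rose, from 95.0 ± 3.00 to 115 ± 4.504 TPM. UBE2C (225 ± 6.19 and 215 ± 6.51 TPM) was not called. In bulk RNA a smaller share of cells in a phase of the cell cycle cannot be told apart from less RNA per cell.

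Replication-dependent histone genes, whose messenger RNA mostly lacks a poly(A) tail, passed the filter on low counts for 15 of the 44 in the tables, so no statement covers all members. Of these 15, 6 rose and 1 fell. H2BC5, a histone gene that also makes polyadenylated transcripts, was at 18.8, 16.3 and 17.4 TPM in plvx neo and at 30.2, 33.1 and 25.8 TPM in STBD1 WT (log2 fold change 0.78 ± 0.132, adjusted p = 1.73e-04).

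Protein quality control genes were lower in several compartments. The heat shock list holds cytosolic chaperones and co-chaperones, a mitochondrial pair and the transcription factor of the heat shock response. Of its 18 genes tested 15 fell and 2 rose, this factor being 1 of the 2, with a median of -0.30, and 16 of the 18 lay in the most abundant bin. With the GC and length offsets 15 fell and 0 rose by edgeR. HSPA8 (chr11:123057489-123063230), the constitutive cytosolic chaperone and one of the most abundant messages, was at 2191, 2351 and 2269 TPM in plvx neo and at 1609, 1427 and 1559 TPM in STBD1 WT (log2 fold change -0.54 ± 0.0383, adjusted p = 2.50e-09). HSPA1B, an inducible HSP70 gene, was at 352, 373 and 373 TPM in plvx neo and at 232, 193 and 224 TPM in STBD1 WT (log2 fold change -0.75 ± 0.0479, adjusted p = 5.61e-10). Groups did not overlap for either chaperone. HSPA1A is nearly identical to HSPA1B, so the division of reads between them is uncertain, and at 5.35 ± 1.16 and 3.03 ± 0.727 TPM it stood on the same side.

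CHORDC1 (-0.42 ± 0.0406), HSP90AA1 (-0.35 ± 0.0375), HSPH1 (-0.34 ± 0.0429) and the mitochondrial pair HSPD1 (-0.30 ± 0.0334) and HSPE1 (-0.27 ± 0.0389) also fell, whereas DNAJB4 (20.4 ± 0.692 and 17.9 ± 1.05 TPM) was not called. The heat shock element letters GAANNTTC, on both strands of the same window, were found for 10 of the 17 genes of this list with a promoter entry (58.8%), against 5.78% of all promoters and 5.66% of the tested genes with an entry. The promoters of the pair with per-library values are printed with the match in capitals, at chr6:31827608-31827667 (plus) and chr11:123062152-123062211 (minus), GRCh38.p14.
HSPA1B: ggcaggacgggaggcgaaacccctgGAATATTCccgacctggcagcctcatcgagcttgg
HSPA8: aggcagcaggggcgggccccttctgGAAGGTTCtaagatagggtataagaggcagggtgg

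Of 31 proteasome subunits, all in the most abundant bin, 26 fell and 0 rose by edgeR (median -0.15). None reached 1.5-fold, and all 31 fold changes were negative. PSMD12, a lid subunit, had the largest fall, from 125, 140.0 and 134 TPM to 111, 114 and 116 TPM (log2 fold change -0.25 ± 0.0363). PSMB3 (467 ± 12.7 and 447 ± 2.94 TPM) and PSMB4 (386 ± 10.9 and 382 ± 2.48 TPM), of the catalytic core, were not called.

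Chaperone and unfolded protein response genes of the endoplasmic reticulum, the membrane in which STBD1 sits, were lower in part. Of 25 tested 12 fell and 0 rose by edgeR (median -0.12), and with the GC and length offsets 16 fell and 1 rose. In the most abundant bin lay 12 of the 25. HSPA5 (BiP), the main chaperone of this compartment, was at 289, 298 and 297 TPM in plvx neo and at 239, 239 and 239.6 TPM in STBD1 WT (log2 fold change -0.29 ± 0.0335, adjusted p = 1.72e-06). DNAJB11, its co-chaperone, fell from 81.0 ± 5.62 to 65.9 ± 1.87 TPM, and P4HB (704 ± 22.2 and 672 ± 15.8 TPM), the abundant disulfide isomerase, was not called.

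Genes that build ribosomes fell while those of the cytosolic ribosome itself hardly moved. Of 27 ribosome biogenesis genes 23 fell and 0 rose by edgeR (median -0.20), and with the GC and length offsets 26 fell. Of the 27, 22 lay in the most abundant bin. NCL (nucleolin), which binds ribosomal RNA precursors, was at 600.3, 633 and 662 TPM in plvx neo and at 460.2, 506 and 544 TPM in STBD1 WT (log2 fold change -0.30 ± 0.0339, adjusted p = 1.51e-06). NOLC1, a nucleolar chaperone, fell from 202 ± 6.77 to 166 ± 3.82 TPM, and NPM1, nucleophosmin, from 2424 ± 5.64 to 1917 ± 95.7 TPM. MYBBP1A (49.5 ± 2.91 and 46.5 ± 0.758 TPM) was not called.

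Mitochondrial ribosomal proteins were close to uniform, with 34 of 44 lower, 0 higher by edgeR and a median of -0.17, and with the GC and length offsets 38 were lower. In the most abundant bin, where 32.9% of genes were lower, lay 25 of the 44. MRPL11 was at 199, 193 and 198 TPM in plvx neo and at 150.4, 164 and 145 TPM in STBD1 WT (log2 fold change -0.33 ± 0.0484). MRPL18 (-0.33 ± 0.0457) and MRPS22 (-0.33 ± 0.0495) fell as much, and MRPL4 (147 ± 7.36 and 146 ± 11.1 TPM) was not called.

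Of the cytosolic ribosomal proteins 1 of 45 of the large subunit rose and 3 fell, and of the small subunit 2 of 32 rose and 1 fell, with medians of -0.02 and -0.03. With the GC and length offsets 2 of the large subunit rose and 7 fell. The shares called were below the 27.8% of all genes. RPL13 (4829 ± 147 and 5262 ± 136 TPM) was not called, and RPL38 fell from 2542 ± 162 to 2007 ± 239 TPM (log2 fold change -0.19 ± 0.0388). Short genes such as RPS29 and RPS28 differ in sign between the units. RPS29 was called lower in counts (-0.14 ± 0.0423), and its TPM was 7474, 7958 and 7652 in plvx neo and 7553, 8923 and 8685 in STBD1 WT. RPS28 was called higher in counts (0.15 ± 0.0359), and its TPM was 1925 ± 80.2 and 1802 ± 72.0. The fragment lengths given above differed between the groups, and their part in these genes was not tested. The call of RPS29 was lost without plvx neo replicate 3, without STBD1 WT replicate 1 and without STBD1 WT replicate 3.

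Splicing factors of the SR and hnRNP families fell in 20 of 32 and rose in 0 by edgeR (median -0.14), with 29 of the 32 in the most abundant bin. HNRNPK, which binds C-rich RNA, was at 454, 483 and 474 TPM in plvx neo and at 385, 392.2 and 379 TPM in STBD1 WT (log2 fold change -0.28 ± 0.0347). HNRNPC fell from 931 ± 14.2 to 793 ± 22.7 TPM, and HNRNPA1 (1552 ± 34.9 and 1475 ± 3.17 TPM) was not called. Large chromatin regulators, a list of long genes, had 3 (7.89%) higher and 4 (10.5%) lower of 38, against 13.9% of all genes in each direction. With the GC and length offsets 2 were higher and 16 lower. CHD4 was not called (99.2 ± 2.86 and 96.8 ± 6.21 TPM).

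**Figure D4:**
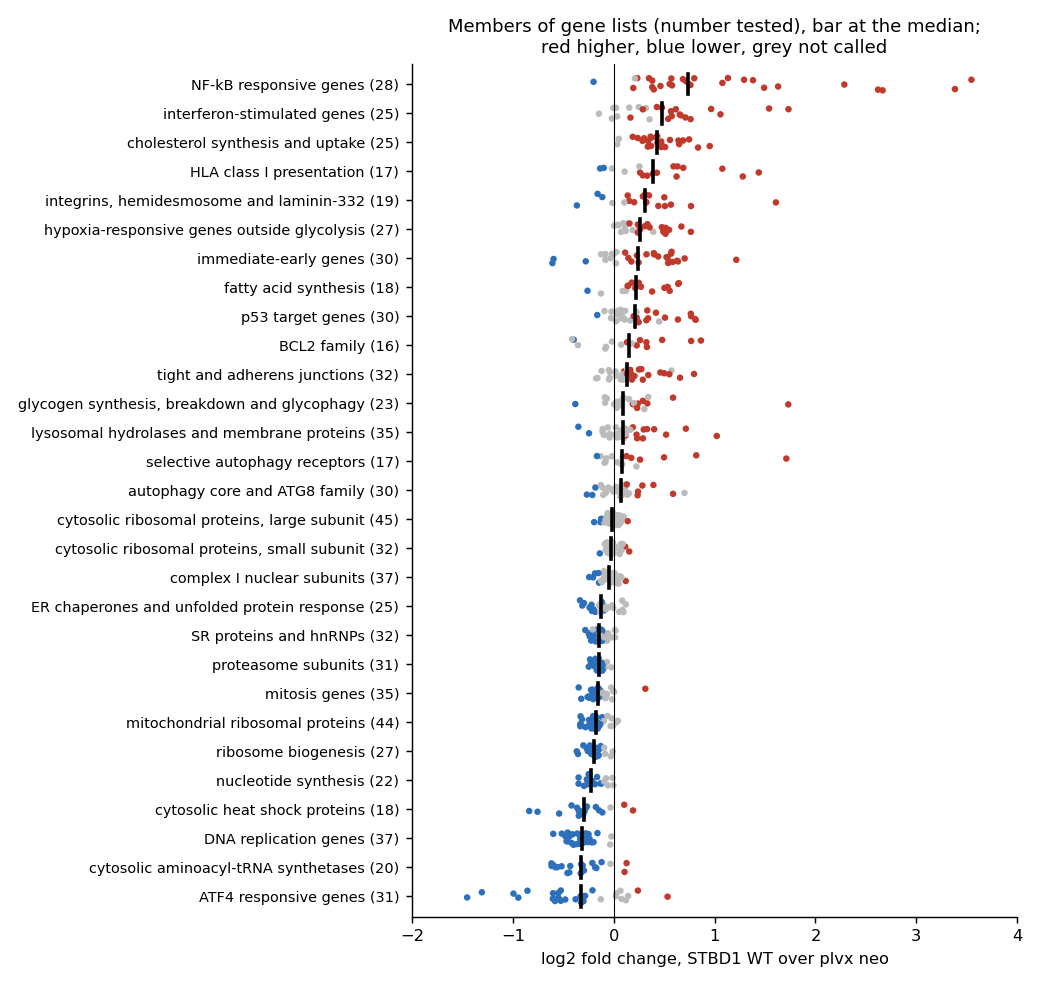
Log2 fold change of STBD1 WT over plvx neo for the tested members of 29 gene lists, with the number tested in brackets, red for rises, blue for falls, grey for members not called and a black bar at the median. The list medians run from 0.73 for NF-kB responsive genes to -0.33 for ATF4 responsive genes, against 0.01 for all genes tested.

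**Figure D5:**
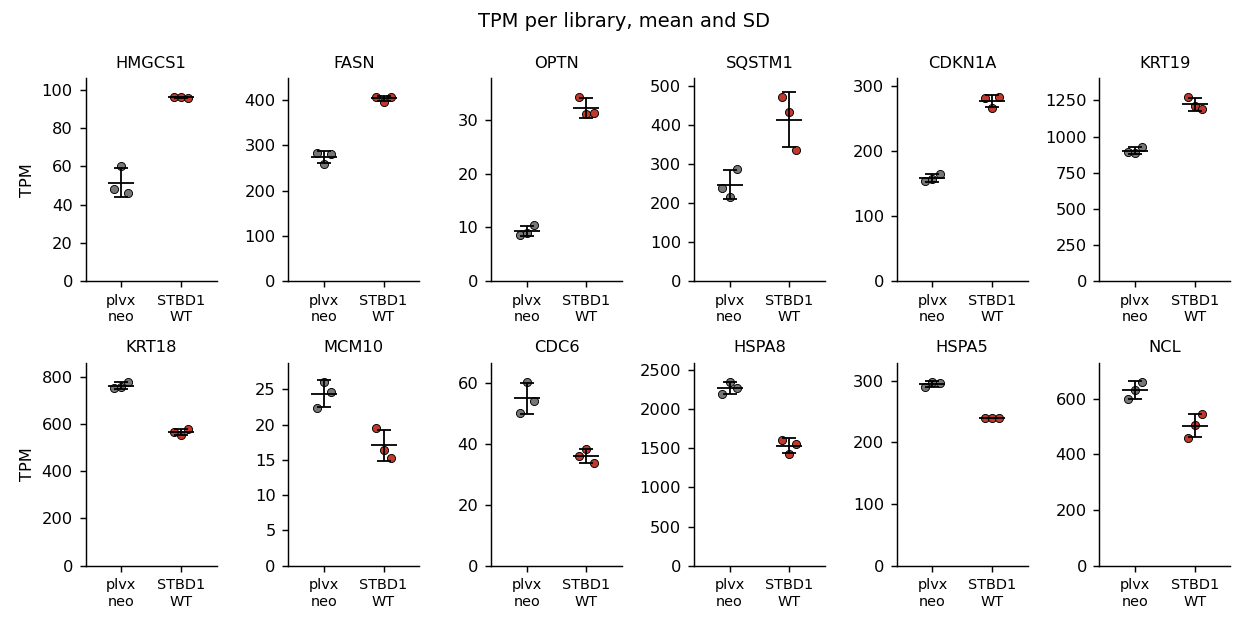
TPM of 12 genes in each of the 3 plvx neo libraries (grey points) and the 3 STBD1 WT libraries (red points), with mean and SD as bars. The groups overlap in none of the 12 panels. HMGCS1, FASN, OPTN, SQSTM1, CDKN1A and KRT19 are higher in STBD1 WT, and KRT18, MCM10, CDC6, HSPA8, HSPA5 and NCL are lower.

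Genes of HLA class I presentation, which load peptides onto class I molecules, were higher. Of 17 tested 12 rose and 2 fell, with a median of 0.39. TAPBP (tapasin, chr6:33299694-33314284), which holds the class I molecule at the peptide transporter, was at 17.4, 17.99 and 17.9 TPM in plvx neo and at 37.9, 39.0 and 37.3 TPM in STBD1 WT (log2 fold change 1.08 ± 0.0485, adjusted p = 2.15e-12). PSMB9, an immunoproteasome subunit, was at 5.53, 4.57 and 6.09 TPM in plvx neo and at 15.6, 16.2 and 12.5 TPM in STBD1 WT (log2 fold change 1.44 ± 0.170, adjusted p = 2.84e-06). Groups were fully separate for both. The transporter subunit TAP1 (0.63 ± 0.0473), the light chain B2M (0.59 ± 0.0354) and the heavy chains HLA-B (0.39 ± 0.0446) and HLA-C (0.26 ± 0.0383) rose by less. The heavy chains are similar in sequence, so the division between them is uncertain. TAP2 (36.3 ± 6.29 and 40.4 ± 1.21 TPM) and PSMB10 (67.5 ± 3.71 and 67.4 ± 5.13 TPM) were not called. PDIA3 (-0.13 ± 0.0340), a general endoplasmic reticulum chaperone, was one of the 2 that fell.

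Of 25 interferon-stimulated genes that could be tested 16 rose and 0 fell by edgeR (median 0.48), while 12 of the 37 in the tables were too low to test. IFI6, a small mitochondrial protein, was at 9.34, 10.2 and 10.3 TPM in plvx neo and at 21.6, 17.1 and 20.7 TPM in STBD1 WT (log2 fold change 0.97 ± 0.122, adjusted p = 6.63e-06). IFIT2, which binds viral RNA, was at 0.170, 0.210 and 0.200 TPM in plvx neo and 0.680, 0.610 and 0.620 TPM in STBD1 WT (log2 fold change 1.73 ± 0.320). ISG15, a ubiquitin-like modifier, rose by 0.54 ± 0.0466 and the transcription factor IRF1 by 0.43 ± 0.0861 on the log2 scale. The abundant IFITM3 (250.5 ± 2.80 and 251 ± 6.85 TPM) was not called.

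Genes known as p53 targets were raised in part. HCT116 carries wild-type p53. Of 30 genes tested 14 rose and 1 fell (median 0.21), and with the GC and length offsets 16 and 2. CDKN1A (p21, chr6:36676460-36687337), the cyclin-dependent kinase inhibitor, was at 154, 157 and 166 TPM in plvx neo and at 283, 266 and 284 TPM in STBD1 WT (log2 fold change 0.81 ± 0.0361, adjusted p = 2.00e-12). BBC3 (PUMA), a pro-apoptotic member of the BCL2 family, was at 13.1, 16.04 and 14.9 TPM in plvx neo and at 24.5, 24.6 and 24.9 TPM in STBD1 WT (log2 fold change 0.77 ± 0.0726, adjusted p = 1.47e-07). The groups were separate for both, yet MDM2, the feedback ubiquitin ligase, had a log2 fold change of 0.07 ± 0.0491 and was not called. TP53INP1 (0.81 ± 0.0843), TP53I3 (0.76 ± 0.0977), BTG2 (0.64 ± 0.0727) and GDF15 (0.51 ± 0.0743) rose, and PLK2 (107 ± 8.41 and 124 ± 23.2 TPM) was not called.

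In the BCL2 family 8 of 16 members tested rose and 1 fell (median 0.15). BIK, a pro-apoptotic member, was at 22.7, 23.8 and 25.1 TPM in plvx neo and at 46.4, 42.7 and 42.8 TPM in STBD1 WT (log2 fold change 0.86 ± 0.0729, adjusted p = 3.02e-08). BCL2L1, which encodes the anti-apoptotic BCL-xL, was at 109.8, 112 and 111 TPM in plvx neo and at 91.5, 85.6 and 85.1 TPM in STBD1 WT (log2 fold change -0.40 ± 0.0390, adjusted p = 2.51e-07). BIK was higher and BCL2L1 lower in every STBD1 WT library. ABALON, a non-coding RNA that shares its locus with BCL2L1, fell from 9.29 ± 0.696 to 6.08 ± 0.412 TPM. PMAIP1 (0.32 ± 0.0483) rose as well, and BAD (70.3 ± 2.84 and 78.1 ± 3.81 TPM) was not called.

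Of 30 immediate-early genes 19 rose and 3 fell (median 0.24), and with the GC and length offsets 15 and 7 (median 0.14). EGR2 was at 5.80, 7.45 and 8.64 TPM in plvx neo and at 15.8, 15.1 and 16.6 TPM in STBD1 WT (log2 fold change 1.22 ± 0.0860, adjusted p = 2.48e-09). JUNB was at 178, 188 and 201 TPM in plvx neo and at 320.1, 298 and 307 TPM in STBD1 WT (log2 fold change 0.70 ± 0.0395). JUND (0.63 ± 0.0440), JUN (0.57 ± 0.0627), ATF3 (0.53 ± 0.0493) and EGR1 (0.52 ± 0.0412), transcription factors like the former, rose as well. The rise was not general, since FOS (365 ± 31.4 and 378 ± 15.3 TPM) and MYC (246 ± 6.399 and 254 ± 9.38 TPM) were not called and NR4A3 (-0.61 ± 0.0815), SIK1 (-0.60 ± 0.0554) and NR4A2 (-0.28 ± 0.0561) fell.

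Signalling target lists showed no common direction. Of 23 ERK feedback genes 8 rose and 4 fell (median -0.01), and with the GC and length offsets 6 and 6. DUSP6, the ERK phosphatase, went from 67.5, 77.6 and 78.5 TPM to 52.1, 46.8 and 53.4 TPM (log2 fold change -0.57 ± 0.0575). Of 17 Wnt targets 3 (17.6%) rose and 1 (5.88%) fell, and of 16 YAP targets 3 (18.75%) rose and 5 (31.25%) fell. Of 15 TGF-beta and BMP targets 5 (33.3%) rose and 1 (6.67%) fell. Among all genes 13.9% were called in each direction, so the counts of these short lists are given as description only. With the GC and length offsets 2 Wnt targets rose and 5 fell, so that their balance turned, and 5 TGF-beta and BMP targets rose and 4 fell. AMOTL2, a YAP target and inhibitor, was at 13.6, 15.4 and 14.7 TPM in plvx neo and at 9.44, 7.70 and 6.39 TPM in STBD1 WT (log2 fold change -0.91 ± 0.0618). DKK1, a secreted Wnt inhibitor, rose from 188 ± 5.71 to 229.8 ± 10.1 TPM, and CCN1, a matricellular YAP target, from 127 ± 5.34 to 171 ± 2.53 TPM. GADD45A, a stress-response gene, rose from 72.2 ± 3.17 to 116 ± 4.42 TPM, and AXL, a receptor tyrosine kinase, fell from 9.79 ± 0.860 to 7.26 ± 0.208 TPM. EREG (163 ± 7.70 and 167 ± 2.38 TPM), CD44 (202 ± 20.7 and 203.2 ± 14.03 TPM) and ID1 (499 ± 14.2 and 539 ± 25.8 TPM) were not called.

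The keratins, which form epithelial intermediate filaments, divided. Of 13 tested 4 (30.8%) rose and 4 (30.8%) fell, against 13.9% of all genes in each direction. KRT18 (chr12:52948871-52952906) was at 754, 755 and 779.6 TPM in plvx neo and at 565, 553 and 578 TPM in STBD1 WT (log2 fold change -0.44 ± 0.0344, adjusted p = 9.64e-09). KRT8, its partner, was at 1934, 1929 and 1958 TPM in plvx neo and at 1474, 1482 and 1399 TPM in STBD1 WT (log2 fold change -0.43 ± 0.0378, adjusted p = 5.48e-08). KRT19 was at 893, 883 and 927 TPM in plvx neo and at 1274, 1208 and 1187 TPM in STBD1 WT (log2 fold change 0.43 ± 0.0391, adjusted p = 7.72e-08). The simple-epithelial pair thus stood lower and KRT19 higher in all 3 libraries of STBD1 WT. KRT7 had a larger fall, from 12.8, 12.6 and 11 TPM to 5.61, 5.81 and 5.11 TPM (log2 fold change -1.40 ± 0.118). KRT15, a basal-layer keratin, rose from 10.5 ± 1.01 to 16.3 ± 1.61 TPM (log2 fold change 0.98 ± 0.0720).

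Genes of the hemidesmosome and its laminin were higher. Of 19 integrin, hemidesmosome and laminin-332 genes tested 14 rose and 3 fell (median 0.31), and with the GC and length offsets 12 rose and 3 fell with a median of 0.16. COL17A1 (collagen XVII, chr10:104031286-104085880), a transmembrane protein of the hemidesmosome, was at 0.640, 0.870 and 0.920 TPM in plvx neo and at 2.54, 3.15 and 2.85 TPM in STBD1 WT (log2 fold change 1.61 ± 0.137, adjusted p = 3.69e-08). LAMB3, the beta chain of laminin-332, was at 17.1, 15.8 and 19.3 TPM in plvx neo and at 30.8, 29.0 and 28.3 TPM in STBD1 WT (log2 fold change 0.77 ± 0.0547). The alpha chain LAMA3 (0.50 ± 0.0849) and the collagen receptor subunit ITGA2 (0.57 ± 0.0624) rose too. Of the laminin-binding integrin, ITGB4 rose (0.31 ± 0.0369) and ITGA6 (35.7 ± 5.11 and 36.2 ± 1.52 TPM) was not called. ITGB5 (-0.36 ± 0.0512) and ITGB1 (-0.16 ± 0.0354), other integrin subunits, fell.

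Junction genes rose in 16 of 32 and fell in 0 by edgeR (median 0.13), and with the GC and length offsets 9 rose and 4 fell. CLDN4, a tight junction claudin, was at 132, 132 and 140.2 TPM in plvx neo and at 212, 207 and 226 TPM in STBD1 WT (log2 fold change 0.66 ± 0.0377, adjusted p = 1.26e-10). JUP (plakoglobin) rose from 82.4 ± 5.28 to 117 ± 3.22 TPM and DSC2 (desmocollin) from 9.82 ± 0.641 to 13.8 ± 0.593 TPM, and E-cadherin, CDH1, by 0.27 ± 0.0444 on the log2 scale. CTNNB1 (153 ± 7.49 and 162 ± 13.4 TPM) and CLDN7 (137 ± 6.49 and 145 ± 3.00 TPM) were not called.

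Among matrix genes, 7 of 22 collagens and collagen-modifying enzymes rose and 1 fell, and with the offsets 6 and 5. LOXL2, a collagen cross-linking oxidase, was at 17.5, 17.9 and 18.1 TPM in plvx neo and at 26.5, 26.2 and 23.8 TPM in STBD1 WT (log2 fold change 0.55 ± 0.0512). MMP7 (matrilysin) was low, at 12, 5 and 11 counts in plvx neo and 37, 48 and 33 counts in STBD1 WT (log2 fold change 2.09 ± 0.354, adjusted p = 1.67e-04). TIMP1 (138 ± 0.811 and 133 ± 5.56 TPM) was not called. Of 19 syndecans, glypicans and heparan sulfate enzymes 8 rose and 2 fell, and with the offsets 6 and 4. SDC4 (syndecan 4, chr20:45325288-45348424) was at 45.1, 47.7 and 49.9 TPM in plvx neo and at 101, 97.8 and 102 TPM in STBD1 WT (log2 fold change 1.08 ± 0.0386, adjusted p = 6.62e-14). HSPG2 (perlecan) rose from 7.07 ± 1.38 to 11.5 ± 0.977 TPM. For SDC4 every STBD1 WT library lay above every plvx neo library.

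Of 15 secreted protease inhibitors and mucosal proteins 6 rose and 0 fell by edgeR (median 0.11), and with the GC and length offsets 6 rose and 2 fell with a median of 0.06. SERPINB1, an inhibitor of neutrophil proteases, was at 29.8 ± 4.47 and 43.9 ± 2.46 TPM (log2 fold change 0.63 ± 0.0574). Mesenchymal genes had 4 (28.6%) higher and 2 (14.3%) lower of 14, against 13.9% of all genes in each direction. Of the abundant ones LGALS1 (galectin 1) was at 1219, 1204 and 1235 TPM in plvx neo and 1754, 1770.2 and 1645 TPM in STBD1 WT (log2 fold change 0.45 ± 0.0431, adjusted p = 1.80e-07). S100A6, a calcium-binding protein, rose from 1929.5 ± 45.3 to 2537 ± 37.5 TPM. Of 28 intestinal differentiation genes 9 were expressed enough to test, and 4 of these rose by edgeR, 2 by DESeq2 and 0 by limma on log2(TPM + 1). HNF4A, a nuclear receptor of the gut epithelium, was at 3.22, 3.00 and 2.89 TPM in plvx neo and at 4.02, 4.10 and 3.97 TPM in STBD1 WT (log2 fold change 0.42 ± 0.0963).

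In the lists of mitochondrial energy metabolism 0 genes were called with a change of at least 1.5 times, against 3.54% of all genes. Of 26 TCA cycle and pyruvate entry genes 3 rose and 11 (42.3%) fell (median -0.05). OGDH, of the oxoglutarate dehydrogenase complex, was at 23.5, 24.5 and 23.4 TPM in plvx neo and at 31.5, 30.1 and 30.9 TPM in STBD1 WT (log2 fold change 0.36 ± 0.0427). SUCLA2 (-0.28 ± 0.0584) and IDH3B (-0.23 ± 0.0405), of later and earlier steps of the cycle, fell, and MDH2 (236 ± 2.96 and 236 ± 12.1 TPM) was not called. The nuclear subunits of complex I had 1 higher and 6 (16.2%) lower of 37. Those of complexes III, IV and V had 0 higher by edgeR and 6 (17.6%) lower of 34, against 13.9% of all genes lower. In the most abundant bin, where 32.9% of genes were lower, lay 21 of the 26, 21 of the 37 and 33 of the 34. With the GC and length offsets complex I had 0 higher by edgeR and 8 lower, and the other complexes 2 and 7. ATP5F1B (835 ± 14.2 and 805 ± 4.46 TPM) and COX4I1 (942 ± 20.9 and 960.5 ± 8.20 TPM) were not called. Of the 13 subunits encoded in mitochondrial DNA 3 rose and 3 fell, with MT-CYB, cytochrome b, at 2202 ± 141 and 2649.8 ± 104 TPM (log2 fold change 0.26 ± 0.0423).

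Of 12 polyamine genes 2 rose, 3 fell and 7 were not called. ODC1 (ornithine decarboxylase), the first enzyme of synthesis, was at 288, 272 and 282 TPM in plvx neo and at 213, 215 and 202 TPM in STBD1 WT (log2 fold change -0.42 ± 0.0405, adjusted p = 2.09e-07). SAT1, the acetyltransferase that starts breakdown, was at 276, 315 and 326 TPM in plvx neo and at 471, 477 and 481 TPM in STBD1 WT (log2 fold change 0.61 ± 0.0410, adjusted p = 1.12e-09). ODC1 was lower and SAT1 higher in all 3 STBD1 WT libraries. SRM, spermidine synthase, fell from 138 ± 5.57 to 108 ± 2.87 TPM.

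Redox and iron genes were mixed. Of 25 NRF2 target and glutathione genes 8 rose and 4 fell (median 0.03), and with the GC and length offsets the balance turned, with 5 higher and 7 lower (median -0.01). SLC7A11, the cystine importer, was at 6.92, 9.02 and 8.12 TPM in plvx neo and at 5.01, 5.24 and 5.14 TPM in STBD1 WT (log2 fold change -0.60 ± 0.0680), and ABCC2, a drug and conjugate exporter, rose from 21.6 ± 1.153 to 32.6 ± 1.5 TPM. Of 15 iron and metallothionein genes 2 rose and 3 fell. TFRC (transferrin receptor) fell from 98.0 ± 4.17 to 80.6 ± 6.53 TPM and FTL (ferritin light chain) rose from 1563 ± 41.4 to 1785 ± 41.4 TPM. MT1E, a metallothionein, fell (-0.30 ± 0.0415), and MT2A (838 ± 7.28 and 851 ± 25.2 TPM) was not called. Pentose phosphate and NADPH enzymes had 3 (23.1%) higher and 3 (23.1%) lower of 13, and the abundant TKT (453 ± 15.2 and 459 ± 9.46 TPM) was not called.

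NF-kB and ATF4 responsive genes held many of the larger changes, and their lists are given briefly. Of 28 NF-kB responsive genes 26 rose and 1 fell (median 0.73). CXCL8 (interleukin 8) was at 1.6, 1.23 and 1.3 TPM in plvx neo and at 15.2, 14.1 and 11.8 TPM in STBD1 WT (log2 fold change 3.55 ± 0.143). BIRC3, a ubiquitin ligase of the TNF receptor complex, was at 1.02, 0.980 and 1.12 TPM in plvx neo and at 10.6, 9.47 and 11.03 TPM in STBD1 WT (log2 fold change 3.38 ± 0.106). Each of the 6 values for both genes lies far from those of the other group. RELB (2.29 ± 0.0831), NFKBIA (1.63 ± 0.0651), TNFAIP3 (1.49 ± 0.110) and NFKB2 (1.38 ± 0.0459), subunits and inhibitors of NF-kB, rose as well. TNFRSF9, a receptor outside this list, had 2, 5 and 1 counts in plvx neo and 154, 225 and 180 counts in STBD1 WT. TNFRSF6B, a decoy receptor that sits in the TNF receptor list of 8 higher and 3 lower of 27, was at 38.3 ± 0.692 and 94.6 ± 3.23 TPM (log2 fold change 1.29 ± 0.0523).

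The kappaB consensus was found in the promoter window of 17 of the 30 listed NF-kB genes with an entry (56.7%), against 9.95% of all promoters and 15.8% of the tested genes with an entry. The letters were not in the window of CXCL8 or PSMB9. The amino acid response letters TGATGNAAN, searched the same way, were in 5 of 27 ATF4 responsive genes (18.5%) and 3 of 16 synthetases (18.8%), against 3.13% of all promoters and 2.23% of the tested genes. The sterol response letters TCACNCCAC were in 1 of 18 cholesterol genes (5.56%), against 0.883% and 1.16%, and in none of HMGCS1, LSS, INSIG1 and TM7SF2. The windows of 3 of the genes just named are shown along their own strands with matches in capitals, at chr11:102317324-102317383 (plus), chr14:35404796-35404855 (minus) and chr6:137867179-137867238 (plus), GRCh38.p14 from RefSeq.
BIRC3: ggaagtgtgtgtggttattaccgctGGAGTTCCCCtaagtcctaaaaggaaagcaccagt
NFKBIA: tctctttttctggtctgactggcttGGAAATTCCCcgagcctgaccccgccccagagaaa
TNFAIP3: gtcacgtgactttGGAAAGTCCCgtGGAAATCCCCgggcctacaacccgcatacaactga

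Of 31 ATF4 responsive genes 22 fell and 2 rose (median -0.33), and of 20 cytosolic aminoacyl-tRNA synthetases 17 fell and 2 rose (median -0.32). With the GC and length offsets 17 of the synthetases fell and 0 rose by edgeR. In the most abundant bin lay 17 of the 31 and all 20 synthetases. ASNS (asparagine synthetase) was at 195, 202 and 198 TPM in plvx neo and at 77.1, 78.0 and 74.3 TPM in STBD1 WT (log2 fold change -1.45 ± 0.0389, adjusted p = 1.42e-15). PSAT1 (-1.31 ± 0.0374), PHGDH (-0.95 ± 0.0396), both of serine synthesis, and PCK2 (-0.99 ± 0.0545), the mitochondrial phosphoenolpyruvate carboxykinase, fell in the same way. WARS1 (-0.62 ± 0.0409) and CARS1 (-0.62 ± 0.0405), the synthetases for tryptophan and cysteine, fell most among their kind. Of 27 hypoxia-responsive genes outside glycolysis 16 rose and 0 fell by edgeR (median 0.26). Of 19 glycolytic enzymes 7 rose and 1 fell, and with the GC and length offsets 4 and 5. GAPDH was not called (0.04 ± 0.0380).

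Some of the steepest changes lay outside every list. TMEM265, a membrane protein, was at 7.87, 5.14 and 4.47 TPM in plvx neo and at 22.3, 22.6 and 24.1 TPM in STBD1 WT (log2 fold change 1.96 ± 0.148, adjusted p = 6.02e-09). BDNF, a secreted neurotrophin, was at 5.14, 5.93 and 5.82 TPM in plvx neo and at 2.68, 3.01 and 3.00 TPM in STBD1 WT (log2 fold change -0.94 ± 0.0851, adjusted p = 8.19e-08). Neither gene showed overlap between the groups. TMEM265 shares bases with SRCAP on its strand and BDNF with BDNF-AS on the other, so part of their reads may be assigned to either partner. SLC1A3, a glutamate transporter, was at 3.87, 3.43 and 5.51 TPM in plvx neo and at 2.49, 1.87 and 2.39 TPM in STBD1 WT (log2 fold change -0.84 ± 0.135). FMC1-LUC7L2, a read-through gene, was at 11.5, 13 and 11.99 TPM in plvx neo and at 10.6, 4.36 and 2.98 TPM in STBD1 WT, so that STBD1 WT replicate 1 lay near the plvx neo libraries. Its call (-1.05 ± 0.241) was lost in DESeq2 and in both fits on TPM.

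Of 1452 lncRNA genes tested 89 (6.13%) rose and 37 (2.55%) fell, and of 13026 protein-coding genes 1993 (15.3%) and 2061 (15.8%). LINC03040 (chr6:44000580-44007612) was at 2.84, 4.25 and 3.27 TPM in plvx neo and at 8.71, 9.32 and 8.73 TPM in STBD1 WT (log2 fold change 1.40 ± 0.0899, adjusted p = 6.84e-10). Of the most abundant nuclear messages, EEF1A1 (translation elongation factor) rose from 6690.2 ± 185 to 7648 ± 356 TPM (log2 fold change 0.19 ± 0.0394). SNORD3A, the U3 small nucleolar RNA, was at 274, 259 and 254 counts in plvx neo and 361, 401 and 264 counts in STBD1 WT (log2 fold change 0.42 ± 0.104). Its TPM was 1374 ± 66.5 and 2579 ± 113, a wider gap than that of the counts.

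The STBD1 W203C line shares the plvx neo cells as its control, so its levels are set beside the others with no test. Values are mean TPM ± SD over 3 libraries each, in the order plvx neo, STBD1 WT, W203C. HMGCS1 was at 51.5 ± 7.76, 96.0 ± 0.214 and 68.1 ± 2.31 TPM. CDC6 was at 55.0 ± 5.14, 36.1 ± 2.28 and 52.8 ± 4.03 TPM. HSPA8 was at 2270.2 ± 80.03, 1532 ± 94.0 and 2319 ± 130.3 TPM. For these 3 genes the mean of the W203C line lay nearer to plvx neo than to STBD1 WT. KRT18, in contrast, was at 763, 565 and 582 TPM as means, near STBD1 WT in the W203C line. OPTN was at 9.34 ± 0.958, 32.3 ± 1.81 and 19.9 ± 0.616 TPM, and CDKN1A at 159 ± 6.11, 278 ± 9.82 and 215 ± 5.72 TPM, with W203C between the others. The summed STBD1 level was 46.1 ± 2.30 TPM in the W203C line, against 4.85 ± 0.751 and 54.6 ± 2.39 TPM, and the values of both construct lines apply to their titles.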

How the data were processed

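RNA of HCT116 cells was sequenced in 3 plvx neo, 3 STBD1 WT and 3 STBD1 W203C libraries, grouped here by sample title. The authors removed adapter and low-quality reads, aligned to hg38 with STAR 2.7.1a and deposited, for each library, the expected count of each gene from RSEM 1.3.1. The deposited TPM of RSEM divides these counts by effective length and scales each library to the same sum. The deposited gene lengths and effective lengths, in bases, gave the fragment length figure and the offsets. The strand setting is not given in the sources used here, so reads of a gene and an antisense partner cannot be told apart. Of 58395 genes 57754 (98.9%) were matched to a symbol, and gene positions are those of the GENCODE annotation of hg38. Codon and promoter sequences come from the reference and from RefSeq (GRCh38.p14).

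Expected counts were rounded and tested with the quasi-likelihood F-test of edgeR 4.0.16 (R 4.3.3) on the 6 libraries, after TMM scaling and the default filter on low counts, with Benjamini-Hochberg adjustment over all genes tested and a threshold of 0.05. The study used DESeq2. Values after ± are SD over libraries for levels and SE for log2 fold changes, and TPM levels were not tested. The code was tested on simulated data. Alternatives were the size factors of DESeq2, DESeq2 1.42.0 itself, other filters, all 9 libraries, GC content and length offsets, a replicate block, limma 3.58.1 on log2(TPM + 1) and log2(TPM + 0.1), and each library left out. The replicate numbers of the groups did not pair the libraries. The columns of unmapped samples numbered 0.

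Per list the 4 called genes with the largest fold change and the 2 uncalled genes of highest TPM were named, along with the 12 largest rises and 12 largest falls without overlap at a mean of 5 CPM, the 5 largest changes of TPM and the 3 largest non-coding changes in each direction. Not all of these are printed, and some genes are not reported here. Another 47 genes were chosen after their values were seen. The members, lists and motifs were chosen with earlier results of these data known. Of the 168 printed genes under the rule 35 overlap a gene on their own strand and 71 one on the opposite strand. P-values measure the spread between these libraries of 1 line per group, and whether each library came from its own culture is not given.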

Additional observations from a re-analysis of the deposited data

How the results depend on the processing

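The number of genes called was 4254 and lay between 3317 and 3794 when 1 library was left out, with 493 to 528 changed by at least 1.5 times in place of 541. DESeq2 called 3178 genes, 1480 higher and 1698 lower. On TPM, limma called 1751 genes with a pseudocount of 1 and 1749 with 0.1. Changes of at least 1.5 times numbered 358 in DESeq2, 262 with a filter at a mean of 5 CPM and 271 in limma on log2(TPM + 1). With the replicate number as a block 4400 genes were called, 4182 of them shared with the unblocked fit, and same-numbered libraries did not deviate together (r of 0.0603, 0.0174 and -0.0187 over genes). The block changed the call of 0 of the 214 genes in the text other than STBD1. The summed STBD1 level was 11.3 times higher, 10.5 to 12.2 times with 1 library left out, and STBD1 alone gave 3.32.

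Of the 214 genes, 183 kept the call, and where called also the direction, in every alternative run. For 23 uncalled genes the sign differed in some alternative in which they stayed uncalled. On TPM 13 lost the call under either pseudocount. RPS28 turned to -0.10 on TPM under both pseudocounts, and RPS29 turned to 0.017 with the GC and length offsets, with and without the block, and to 0.12 on TPM under both pseudocounts. The cause was not tested. Of 848 list medians under alternatives 671 moved by less than the spread between replicates. By list, the median stayed within that spread under every alternative for 11 of 53. For 24 of the 53 lists the number of members called differed by at most 1.5 times under every alternative. The 3 libraries of each group limit exact tests of a single level to p = 0.1, and low counts limit genes such as MMP7 and IFIT2.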
